A study of Mus musculus with 24 samples.

Results

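The 9 genes described here, Mbp, Mobp, Cldn11, Cnp, Ermn, Mag, Mog, Opalin and Sox10, code for proteins of the myelin sheath and of the oligodendrocytes that build it. They were picked by symbol from the 53700 gene identifiers counted in microglia libraries and the 55487 counted in astrocyte libraries. Each had 1 identifier in every table. Expression was measured by RNA sequencing of 24 libraries from the brains of adult mice, 3 in each of 8 groups. The 4 mouse groups were LPS-injected Serpine2-/- mice, LPS-injected controls, saline-injected Serpine2-/- mice and saline-injected controls. Serpine2 encodes a secreted inhibitor of serine proteases, and lipopolysaccharide (LPS) is a bacterial cell wall component used to provoke inflammation. The labels name siblings that kept a functional Serpine2 allele as controls, without separating mice that kept 1 from mice that kept both, and give no cell-type restriction for the deletion and no dose or time for LPS. Each group held both sexes, with 2 females of 3 in both LPS microglia groups and 1 of 3 in every other group. Each mouse group was sampled as microglia, taken from whole brain by douncing and a Percoll spin, and as astrocytes, taken from the cerebral cortex by papain digestion, and both were then caught on antibody-coated dishes (immunopanning). The labels number 3 samples per group, and where these share a mouse or a preparation is not stated, so p-values measure the spread between these libraries.

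Myelin is a stack of oligodendrocyte membrane wrapped around axons, and it is compacted by a small set of abundant proteins. Oligodendrocytes arise from proliferating precursors under the control of transcription factors such as Sox10 and Olig2, and they switch on the myelin genes as they mature. Oligodendrocyte processes are thin and wrapped around other cells, and messenger RNA for some myelin proteins, of which Mbp is the textbook case, is carried out into the sheath.

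Neither preparation was selected for oligodendrocytes, and which cells the transcripts of the 9 genes came from was not tested. In bulk libraries, fewer cells of a type and less RNA per cell cannot be told apart. Libraries held 4506142 to 13621776 gene counts in microglia and 10944765 to 25135252 in astrocytes, and the lowest count of any member in any library was 44 reads. Levels are given as CPM, the counts divided by library size and scaled within each cell type by the TMM factors, which correct for differences in composition between libraries. Serpine2 was at 16.9 to 20.7 CPM in the 6 knockout and 46.6 to 96.5 CPM in the 6 control microglia libraries, and at 16.4 to 22.2 CPM against 78.2 to 168.9 CPM in astrocytes, so knockouts and controls did not overlap and some reads remained in knockouts. The 8 astrocyte markers summed to 17529 ± 1939 CPM in astrocyte libraries and 559 ± 41.9 CPM in microglia libraries (SD, n = 12 each). The 8 microglia markers summed to 2877 ± 1297 CPM in microglia libraries and 150 ± 82.6 CPM in astrocyte libraries, while 8 neuron markers summed to 2139 ± 260 CPM in microglia libraries. Markers of the labelled cell type were thus present in both preparations, but in microglia libraries the neuron markers were close to them. The 6 neutrophil markers summed to 937 ± 556 CPM in microglia libraries and 2.92 ± 5.64 CPM in astrocyte libraries. Among astrocyte libraries the third LPS library of each genotype stood apart in Serpina3n, an acute-phase gene, with 393 CPM in LPS knockouts against 1111 and 1361 CPM in the other 2, and 134.6 CPM in LPS controls against 1362 and 1404 CPM in the other 2. The 8 oligodendrocyte markers, which include Mag and Mog, summed to 2167 ± 821 CPM in microglia and 1087 ± 404 CPM in astrocyte libraries. All these sums were scaled within each cell type, so they do not rank the cell types. With all 24 libraries scaled together, Mag averaged 91.6 CPM in microglia and 153 CPM in astrocytes. Mog averaged 81.5 CPM in microglia and 116 CPM in astrocytes on that scale. This order depended on the scaling. With library totals in place of TMM factors, Mag and Mog were higher in microglia, at log2 differences of 0.85 and 1.13.

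The members fall into 4 roles. Mbp (chr18:82475146-82585637, plus strand, GRCm38, GENCODE M21 annotation) encodes myelin basic protein, which holds the cytoplasmic faces of the membrane together, and Mobp (chr9:120149707-120181484, plus) encodes a second small basic protein of the same compartment. Cldn11 (chr3:31149920-31164324, plus) encodes the claudin of the tight junctions between myelin layers. Cnp (chr11:100574904-100591729, plus) encodes the cyclic nucleotide phosphodiesterase that keeps cytoplasmic channels open in myelin, and Ermn (chr2:58045113-58052864, minus) encodes ermin, a cytoskeletal protein of late oligodendrocytes. Mag (chr7:30899176-30914873, minus) encodes the adhesion protein of the innermost myelin layer that faces the axon. Mog (chr17:37010743-37023398, minus) encodes an immunoglobulin-like protein of the outermost layer, and Opalin (chr19:41061710-41077113, minus) encodes a glycosylated transmembrane protein of oligodendrocytes. Sox10 (chr15:79154908-79165240, minus) encodes the transcription factor that drives the myelin programme. Exons of Mobp overlap those of Gm38642 on the same strand, and exons of Cnp and Ermn overlap those of Dnajc7 and Galnt5 on the opposite strand. No strand setting is given in the sources used here, so reads of these pairs may have been shared or dropped and the values of Mobp, Cnp and Ermn are uncertain to that extent. Galnt5 itself was at 0.0825 to 1.99 CPM in astrocyte libraries and at 2.65 to 11.5 CPM in microglia libraries. Dnajc7 was at 25.1 to 34.5 CPM in astrocyte libraries, where Cnp was at 183 to 560 CPM. In microglia libraries Dnajc7 was at 92.2 to 119 CPM and Cnp at 63.7 to 232 CPM. The part of Dnajc7 reads in the Cnp values was not tested.

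Per kilobase of exon, which allows genes to be ranked, Mog led in microglia libraries with a mean of 78.9 CPM per kb over 12 libraries. It was followed by Mbp at 61.9, Cnp at 37.3, Mag at 37.2, Cldn11 at 37.0, Mobp at 35.7, Opalin at 17.0, Sox10 at 6.92 and Ermn at 5.03 CPM per kb. Astrocyte libraries had another order, led by Mbp at 224 CPM per kb, Cnp at 93.0 and Mobp at 66.3. Mog followed at 32, Ermn at 23.0, Cldn11 at 20.4, Mag at 17.7, Sox10 at 10.5 and Opalin at 9.84 CPM per kb. In both cell types the ranges over 12 libraries overlapped for every pair of neighbours in these orders. Mbp alone made up 34.6 to 43.0% of the summed CPM of the 9 genes in microglia libraries and 52.7 to 70.5% in astrocyte libraries. The highest library exceeded the lowest by 2.14-fold for Mbp to 6.29-fold for Ermn in microglia, and by 3.05-fold for Cnp to 5.62-fold for Opalin in astrocytes.

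**Figure D1:**
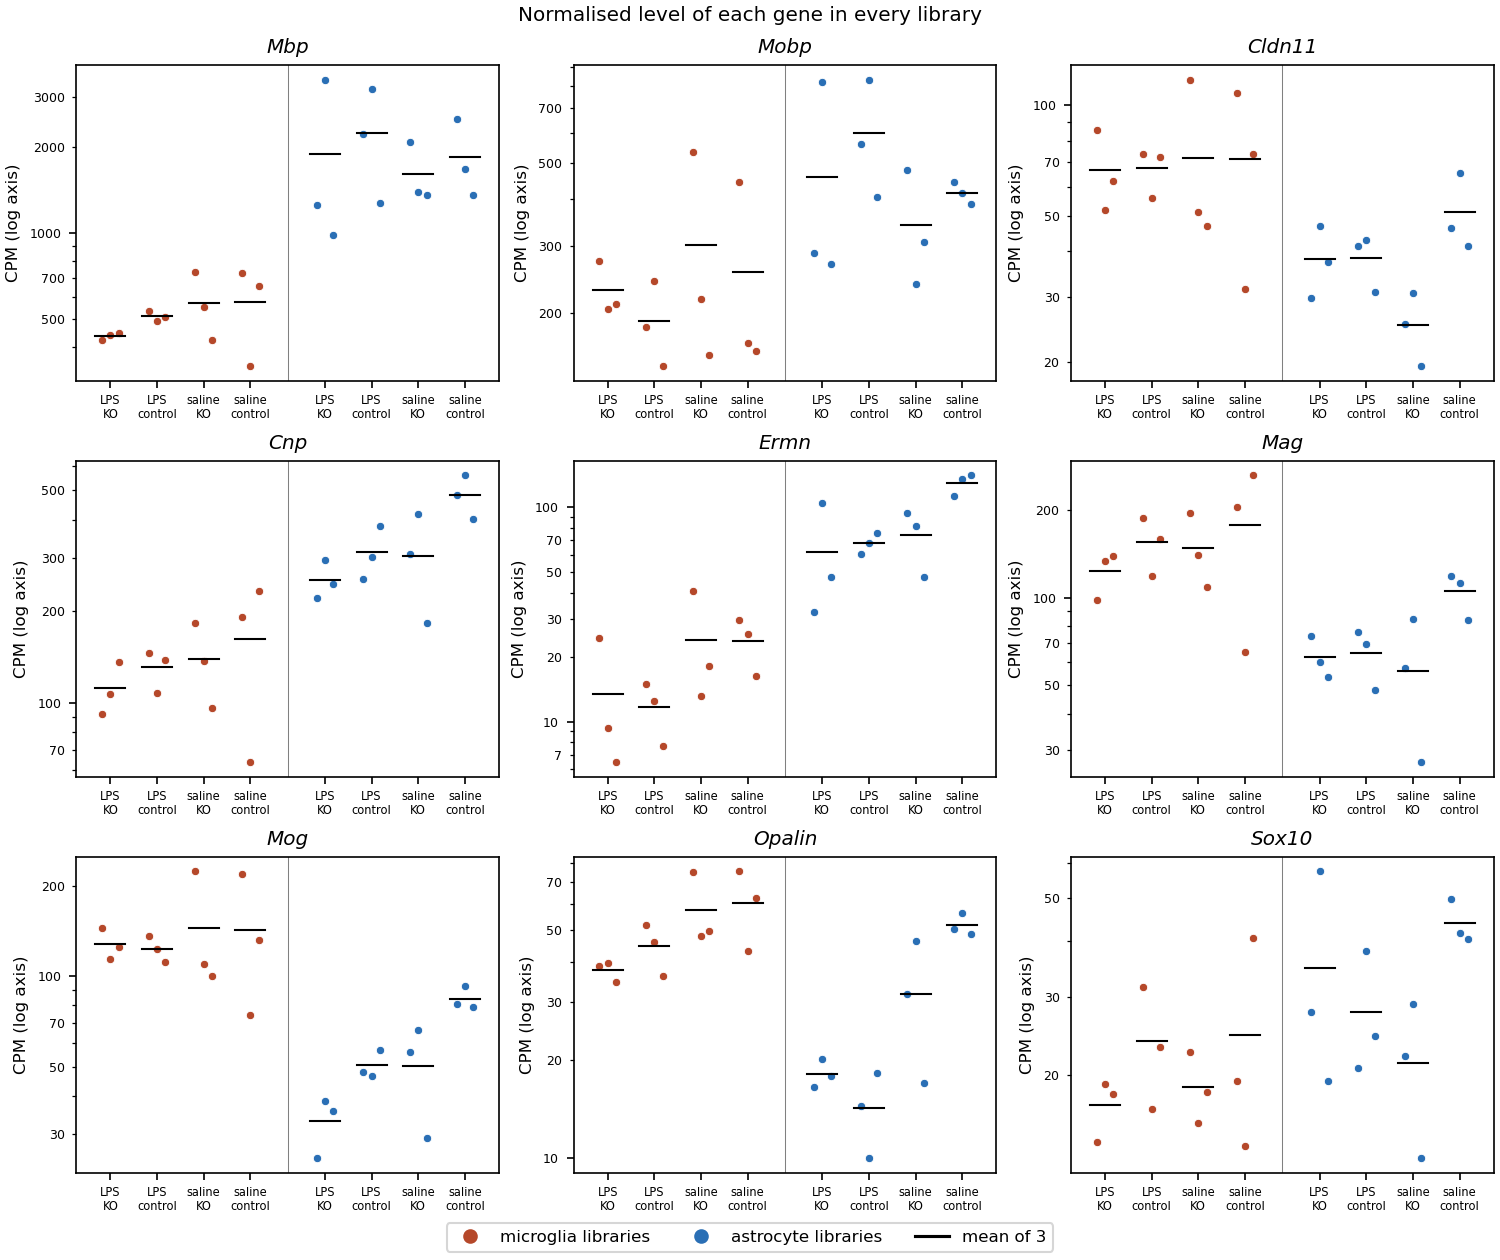
Normalised level (CPM, log axis) of each of the 9 genes in all 24 libraries, grouped by injection and genotype, with points for libraries and a line for the mean of 3. CPM were scaled within each cell type, so heights compare groups of 1 cell type. Opalin in astrocytes shows the 3 LPS control libraries at 10.0 to 18.3 CPM, below the 3 saline control libraries at 48.6 to 56.3 CPM.

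Because Sox10 is known to act at promoters of myelin genes, the promoters of the members were read for the core letters that SOX proteins bind. RefSeq windows (GRCm38.p6, 250 bases before to 50 after the start) were matched for 7 of the 9 genes, and Mbp and Sox10 are named only. The letters ACAAAG, or CTTTGT where the site lies on the other strand, were found in 18.7% of all 32851 windows of that length. The Mobp window held 6 matches, the highest number in any window, and 0.198% of windows held 3 or more. Opalin held 2 matches, Cnp 1, and Mag 1 in 2 of its 3 windows, while Mog, Ermn and Cldn11 held 0. Matches to the E-box CANNTG, the letters bound by basic helix-loop-helix factors such as Olig2, were present in 72.3% of all windows. Opalin held 3 of them, Cnp 1, the Mag windows 1 or 2, and Mobp, Mog, Ermn and Cldn11 held 0. The letters TTCNNNGAA, which STAT factors of the interferon response bind, stood in 8.30% of all windows and, among the members, in the Mag windows alone with 1 each. The windows of Mobp (chr9:120149492-120149791, plus strand), Opalin (chr19:41077064-41077363, minus) and Mog (chr17:37023349-37023648, minus) are shown because they hold the most, an intermediate number and none of the SOX letters, which are in capitals.
Mobp: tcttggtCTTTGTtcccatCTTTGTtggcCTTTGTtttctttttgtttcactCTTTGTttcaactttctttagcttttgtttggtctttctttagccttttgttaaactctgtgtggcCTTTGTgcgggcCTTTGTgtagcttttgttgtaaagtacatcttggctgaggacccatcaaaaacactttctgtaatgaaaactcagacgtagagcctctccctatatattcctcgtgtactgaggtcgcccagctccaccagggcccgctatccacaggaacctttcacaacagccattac
Opalin: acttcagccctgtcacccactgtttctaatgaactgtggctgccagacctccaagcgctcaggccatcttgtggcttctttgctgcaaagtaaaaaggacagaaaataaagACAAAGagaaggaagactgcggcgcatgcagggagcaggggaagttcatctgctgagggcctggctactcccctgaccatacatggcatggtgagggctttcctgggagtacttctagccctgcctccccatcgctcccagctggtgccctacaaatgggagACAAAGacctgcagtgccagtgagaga
Mog: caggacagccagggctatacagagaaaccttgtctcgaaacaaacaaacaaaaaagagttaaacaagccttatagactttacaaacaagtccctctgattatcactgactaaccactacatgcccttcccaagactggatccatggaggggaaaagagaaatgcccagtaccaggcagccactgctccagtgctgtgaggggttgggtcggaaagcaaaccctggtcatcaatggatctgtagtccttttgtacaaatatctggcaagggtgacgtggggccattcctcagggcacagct
A match is a description of these letters and does not show that a factor was bound in these cells.

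Microglia and astrocyte libraries differed in the levels of the 9 genes relative to each other. For the comparison between cell types, all 24 libraries were scaled together over the 24607 genes that passed the filter among shared identifiers, and microglia were set against astrocytes averaged over the 4 mouse groups. On that shared scale Ermn was at 4.06 to 24.1 CPM in microglia and 69.1 to 293 CPM in astrocytes, and was 16.0-fold lower in microglia (log2 difference -4.00, SE 0.24). Mbp, at 211 to 436 CPM in microglia and 2102 to 7277 CPM in astrocytes, had a log2 difference of -3.66 (SE 0.20). Cnp followed with a log2 difference of -3.10 (SE 0.18), Mobp with -2.68 (SE 0.23) and Sox10 with -2.37 (SE 0.20). All 5 had ranges that did not overlap between cell types. Cldn11 had a log2 difference of -0.91 (SE 0.17), Opalin of -0.86 (SE 0.15), Mag of -0.71 (SE 0.18) and Mog of -0.43 (SE 0.16). All 9 were called lower in microglia by edgeR's quasi-likelihood test, with adjusted p from 1.38e-14 for Mbp to 0.0178 for Mog. Mog was not called with DESeq2's size factors in edgeR (log2 difference -0.14, adjusted p = 0.43) or by DESeq2 (-0.14, adjusted p = 0.463), and the other 8 were called by both. However, 79.6% of all genes tested were called in this comparison with TMM, so the count says little about these genes.

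The sign of the difference for 4 of the 9 depended on the scaling, which moved all genes nearly alike. With library totals in place of TMM factors the median of all genes moved by 1.55 on the log2 scale, and Cldn11, Mag, Mog and Opalin were then higher in microglia, with log2 differences of 0.65, 0.85, 1.13 and 0.69. Relative to the median of all genes these 4 were at -1.33, -1.14, -0.86 and -1.30 with library totals and at -1.35, -1.15, -0.87 and -1.30 with TMM, so their place among all genes was nearly the same. With totals that left out mitochondrially encoded genes these 4 were between -0.22 and 0.26 and not called. Mitochondrially encoded genes took 2.45 to 6.0% of gene counts in microglia libraries and 32.3 to 45.0% in astrocyte libraries. Ermn, Mbp, Cnp, Mobp and Sox10 were called lower in microglia under TMM, under size factors and under both kinds of totals. Cell type here cannot be told apart from brain region, from the way the tissue was taken apart, or from the gene annotation, and 64.6 to 77.0% of uniquely aligned reads fell outside annotated exons in microglia against 20.5 to 26.9% in astrocytes.

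Ratios between genes counted in the same library do not depend on that scaling. Mbp reads stood to Mog reads as 2.93 to 5.05 in microglia libraries and as 17.2 to 89.7 in astrocyte libraries. The median ratios were 3.98 in microglia and 34.2 in astrocytes. Cnp stood to Mag as 0.774 to 0.979 in microglia, a narrow band over 12 libraries, and as 2.98 to 7.90 in astrocytes. Ermn stood to Mog as 0.0515 to 0.344 in microglia and as 1.24 to 2.73 in astrocytes, and Sox10 to Mog as 0.0885 to 0.308 in microglia and as 0.393 to 1.5 in astrocytes. None of these 4 ratios overlapped between cell types, whereas Mag to Mog, both adhesion or surface proteins of myelin, did, at 0.678 to 1.99 in microglia and 0.851 to 2.98 in astrocytes. A ratio of counts shows unequal levels and not which of the genes differed.

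**Figure D2:**
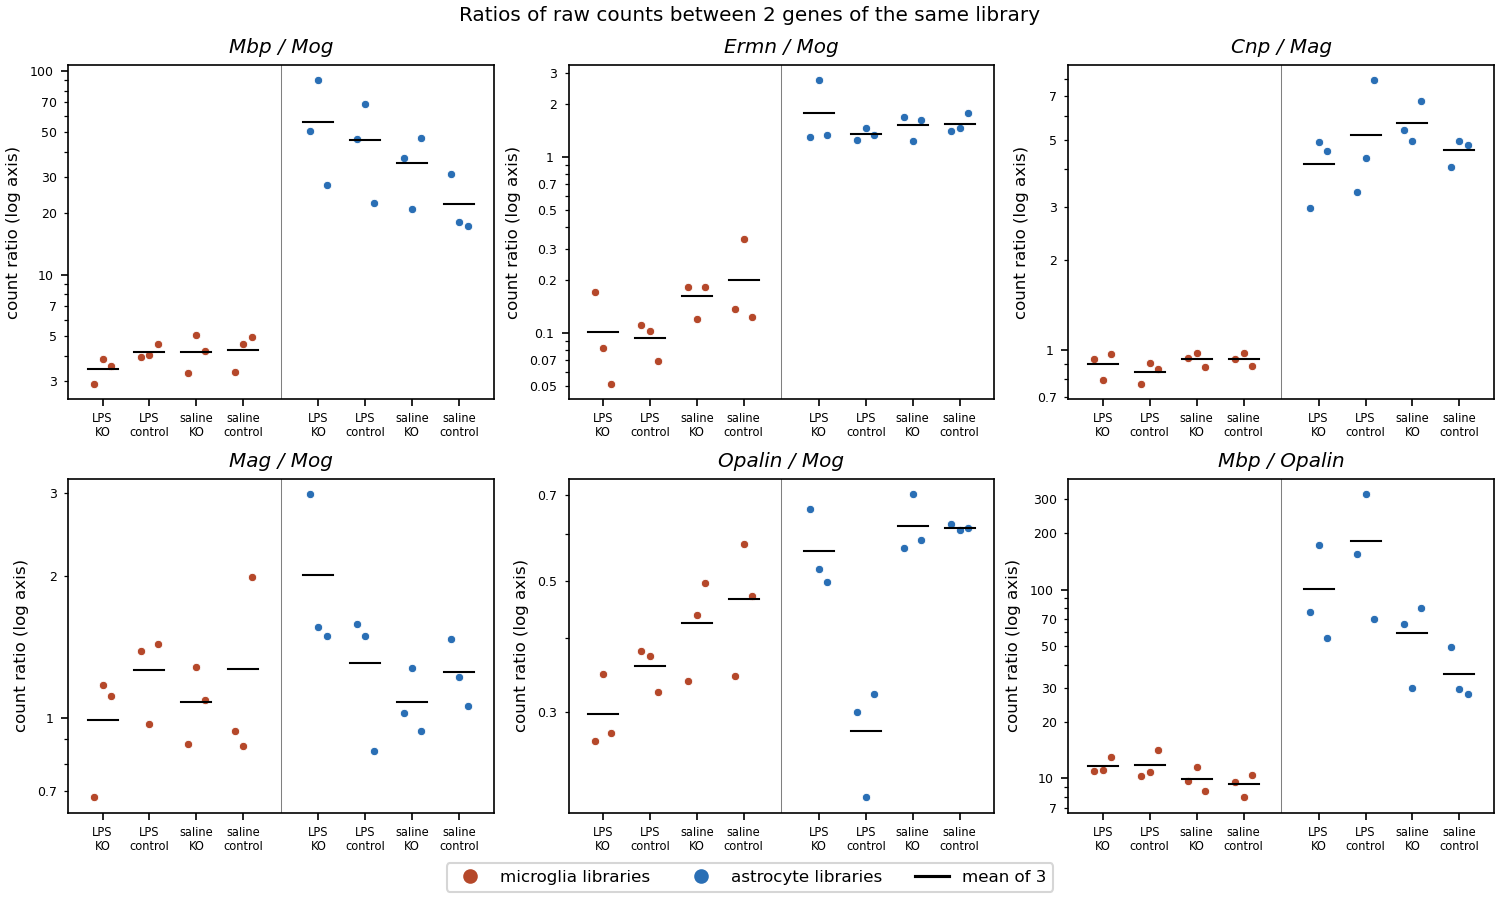
Ratios of raw read counts between a pair of genes of the same library (log axis) for 24 libraries by cell type, injection and genotype, with points for libraries and a line for the mean of 3. The Mbp to Mog, Ermn to Mog and Cnp to Mag ratios do not overlap between microglia and astrocyte libraries, the Mag to Mog ratio does, and the Opalin to Mog ratio among astrocyte libraries is lowest in the 3 LPS control libraries, at 0.215 to 0.322.

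In astrocyte preparations from control mice, LPS was accompanied by lower Opalin. Opalin was at 14.4, 10.0 and 18.3 CPM in LPS control libraries, against 50.4, 56.3 and 48.6 CPM in saline control libraries. The groups did not overlap, and the lowest saline library stood above the highest LPS library by more than either group's spread. The means were 14.3 ± 4.14 CPM in LPS controls and 51.8 ± 4.02 CPM in saline controls (SD, n = 3 each). Opalin fell by 1.86 on the log2 scale (SE 0.32, 95% interval -2.53 to -1.20, adjusted p = 0.00786 by edgeR's quasi-likelihood test with Benjamini-Hochberg adjustment over 18188 genes), which is 3.64-fold lower. It was the only member called of 9, where 0.929% of all genes were called (169 genes, 28 of them lower). Without the second saline control library edgeR's adjusted p for Opalin was 0.0571 at a log2 fold change of -1.80, and without the second LPS control library it was 0.0632 at -1.66. Genes called over all numbered 36 and 55 in these fits, and leaving out any 1 library gave 36 to 476. With the third LPS libraries left out, Opalin was at -2.07 (adjusted p = 0.00327 by edgeR) and 734 genes were called. That fit had males only in the LPS groups, while each saline group kept 1 female.

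The other surface proteins, the cytoskeletal proteins and the regulator lay on the same side without passing the test. Mog was at 48.1, 46.7 and 56.9 CPM in LPS control libraries, against 80.8, 92.5 and 79.2 CPM in saline control libraries, with no overlap and a log2 fold change of -0.74 (SE 0.27, adjusted p = 0.249 by edgeR). Ermn was at 60.3, 68.0 and 76.3 CPM in LPS controls, against 113, 136 and 141 CPM in saline controls (log2 fold change -0.93, SE 0.34, adjusted p = 0.249 by edgeR). Both had every LPS library under every saline library. Cnp was at 256, 302 and 382 CPM in LPS controls, against 485, 560.1 and 404 CPM in saline controls. Mag was at 76.1, 69.6 and 48.4 CPM in LPS controls, against 119, 113 and 84.0 CPM in saline controls. Sox10 was at 20.8, 38.1 and 24.5 CPM in LPS controls, against 49.8, 41.9 and 40.4 CPM in saline controls. Cnp, Mag and Sox10, with log2 fold changes of -0.62 (SE 0.27), -0.70 (SE 0.32) and -0.66 (SE 0.36), also had no overlap between the groups. With Opalin, 6 of the 9 members had all LPS libraries below all saline libraries, where 9.47% of all genes did, and 5 of 9 had an unadjusted p under 0.05, where 12.1% of all genes did. The median log2 fold change was -0.66 over the 9 and -0.004 over all genes tested.

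Mbp and Mobp did not share that direction. Mbp was at 2229, 3205 and 1278 CPM in LPS control libraries, against 2507, 1676 and 1366 CPM in saline control libraries (log2 fold change 0.27, SE 0.42). Mobp was at 560, 831 and 407 CPM in LPS controls, against 444, 415 and 390 CPM in saline controls (log2 fold change 0.53, SE 0.38). These structural transcripts were spread widely and overlapped between the groups. Their highest astrocyte values were in the second LPS library of each genotype, with Mbp at 3449 CPM in the LPS knockout and 3205 CPM in the LPS control library, and Mobp at 820 and 831 CPM. The same libraries had the highest Pdgfra, the growth factor receptor that marks oligodendrocyte precursors, at 122.6 CPM in the LPS knockout and 81.9 CPM in the LPS control library, while the other 10 astrocyte libraries were at 7.89 to 22.5 CPM. They also had the lowest share of reads outside annotated exons, at 21.5% in the LPS knockout and 20.5% in the LPS control library, the highest share of counts in their top 10 genes, at 66.4% and 65.9%, and the lowest TMM factors, at 0.783 and 0.829. The part of these measures in the Mbp and Mobp values was not tested. Cldn11 was at 41.4, 43.0 and 31.0 CPM in LPS controls, against 46.3, 65.5 and 41.4 CPM in saline controls (log2 fold change -0.41, SE 0.26).

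Opalin counts were also set against those of other members in the same library. Opalin stood to Mog as 0.215 to 0.322 in LPS control astrocyte libraries and as 0.609 to 0.624 in saline control libraries, and to Sox10 as 0.263 to 0.747 in LPS controls and as 1.01 to 1.35 in saline controls. Neither ratio overlapped between the groups. Among knockouts, Opalin stood to Mog as 0.498 to 0.663 in LPS and as 0.568 to 0.701 in saline libraries, which overlapped, and to Sox10 as 0.350 to 0.921 in LPS and as 1.31 to 1.61 in saline libraries, which did not. The summed oligodendrocyte markers were at 903 to 936 CPM in LPS control and 1456 to 1796 CPM in saline control astrocyte libraries. The endothelial markers were at 12.6 to 37.9 CPM in LPS control and 2.65 to 7.63 CPM in saline control libraries, with 5 of 6 past an unadjusted p of 0.05 and 1 called. The summed neuron markers were at 93.6 to 181 CPM in LPS control and 64.9 to 72.4 CPM in saline control libraries, and the summed microglia markers at 73.9 to 262 CPM against 125 to 146 CPM. The part of these other cell types in the values of the 9 genes was not tested.

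In knockout astrocyte preparations the log2 fold changes of the members with LPS lay on both sides of 0, 5 positive and 4 negative. None of 9 was called by edgeR or DESeq2, where 1.56% of all genes were (283 genes), 3 of 9 had an unadjusted p under 0.05, where 13.7% of all genes did, and the median log2 fold change was 0.15, moving between -0.38 and 0.26 as single libraries were left out. Without the third LPS libraries, which left males only in the LPS groups, 0 of 9 were called, the median was 0.26 and 912 genes were called. Opalin was at 16.5, 20.1 and 17.8 CPM in LPS knockout libraries, against 31.9, 46.3 and 17.0 CPM in saline knockout libraries. The third saline knockout library lay among the LPS libraries, and the log2 fold change was -0.81 (SE 0.31, adjusted p = 0.226 by edgeR). Mog was at 24.9, 38.5 and 35.8 CPM in LPS knockouts, against 56.1, 66.1 and 29.0 CPM in saline knockouts (log2 fold change -0.61, SE 0.27). Sox10 was at 27.7, 57.5 and 19.4 CPM in LPS knockouts, against 22.1, 28.8 and 13.0 CPM in saline knockouts (log2 fold change 0.71, SE 0.36), and Cldn11 had a log2 fold change of 0.59 (SE 0.26). Mobp, Mbp and Mag were at log2 fold changes of 0.43, 0.23 and 0.15, and Cnp and Ermn at -0.26 and -0.27. The summed oligodendrocyte markers were at 613 to 822 CPM in LPS knockout and 628 to 1296 CPM in saline knockout libraries, which overlapped. The endothelial markers were at 26.2 to 72.1 CPM in LPS knockout and 2.98 to 8.49 CPM in saline knockout libraries, and their part in the members' values was not tested.

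Saline-injected mice were compared by genotype to ask whether loss of Serpine2 alone was accompanied by a difference. No member was called in astrocyte libraries, where 0.0055% of all genes were, namely Serpine2 itself. All 9 members had lower means in saline knockouts than in saline controls, the median log2 fold change was -0.74, and 7 of 9 had an unadjusted p under 0.05, where 2.75% of all genes did. Every adjusted p was 1 by edgeR. Cldn11 was at 25.3, 30.8 and 19.4 CPM in saline knockout libraries, against 46.3, 65.5 and 41.4 CPM in saline control libraries (log2 fold change -1.02, SE 0.26, adjusted p = 1 by edgeR). Sox10 was at 22.1, 28.8 and 13.0 CPM in saline knockouts, against 49.8, 41.9 and 40.4 CPM in saline controls (log2 fold change -1.04, SE 0.37). Mag was at 57.3, 84.3 and 27.2 CPM in saline knockouts, against 119, 113 and 84.0 CPM in saline controls (log2 fold change -0.90, SE 0.32), where the highest knockout and the lowest control library met. Cldn11, Sox10, Ermn, Mog and Opalin, 5 of the 9, had all knockout libraries below all control libraries, where 4.98% of all genes did.

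The third saline knockout library, the only female of its group, had the lowest value of its group for every member but Mobp. Without it the median log2 fold change was -0.45, all 9 were below 0, and 1 member had an unadjusted p under 0.05, where 2.30% of all genes then did. Mbp and Mobp had log2 fold changes of -0.19 (SE 0.42) and -0.29 (SE 0.38) with all libraries. The summed oligodendrocyte markers were at 628 to 1296 CPM in saline knockout and 1456 to 1796 CPM in saline control libraries. The 8 microglia markers all had lower means in saline knockout astrocytes, with none past an unadjusted p of 0.05, and summed to 85.5 to 118 CPM in saline knockouts and 125 to 146 CPM in saline controls, and their part was not tested. The saline control libraries enter both this comparison and that of LPS in controls, so the values of the 9 genes in them bear on both.

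Among LPS-injected mice the genotypes were compared in the same way in astrocyte preparations. No member was called, where 0.0055% of all genes were, 1 of 9 had an unadjusted p under 0.05, where 2.73% of all genes did, and the median log2 fold change was -0.15, moving between -0.42 and 0.02 as single libraries were left out. Mog was that gene, at 24.9, 38.5 and 35.8 CPM in LPS knockouts, against 48.1, 46.7 and 56.9 CPM in LPS controls (log2 fold change -0.61, SE 0.27, adjusted p = 1 by edgeR), with no overlap. It was 1 of 9 members with all knockout libraries below all control libraries, where 3.01% of all genes had this. Same-numbered LPS libraries deviated together, and the third was the only female of its group in both genotypes, so the number also carries sex. With the replicate number as a block, Mog, Mobp and Cnp had log2 fold changes of -0.63, -0.52 and -0.29, each with an adjusted p of 1 by edgeR. No member's call changed. Opalin was at 18.2 ± 1.85 CPM in LPS knockouts and 14.3 ± 4.14 CPM in LPS controls (SD, n = 3 each). Tested as the LPS response of knockouts minus that of controls, 0 of 9 members were called, as was 0% of all genes, by edgeR and by DESeq2. 3 of 9 had an unadjusted p under 0.05, where 2.6% of all genes did, namely Sox10 at 1.37 (SE 0.52), Opalin at 1.05 (SE 0.43) and Cldn11 at 1.00 (SE 0.36) on the log2 scale. The call of Opalin in controls and its absence in knockouts is therefore not shown to be a difference between genotypes.

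**Figure D3:**
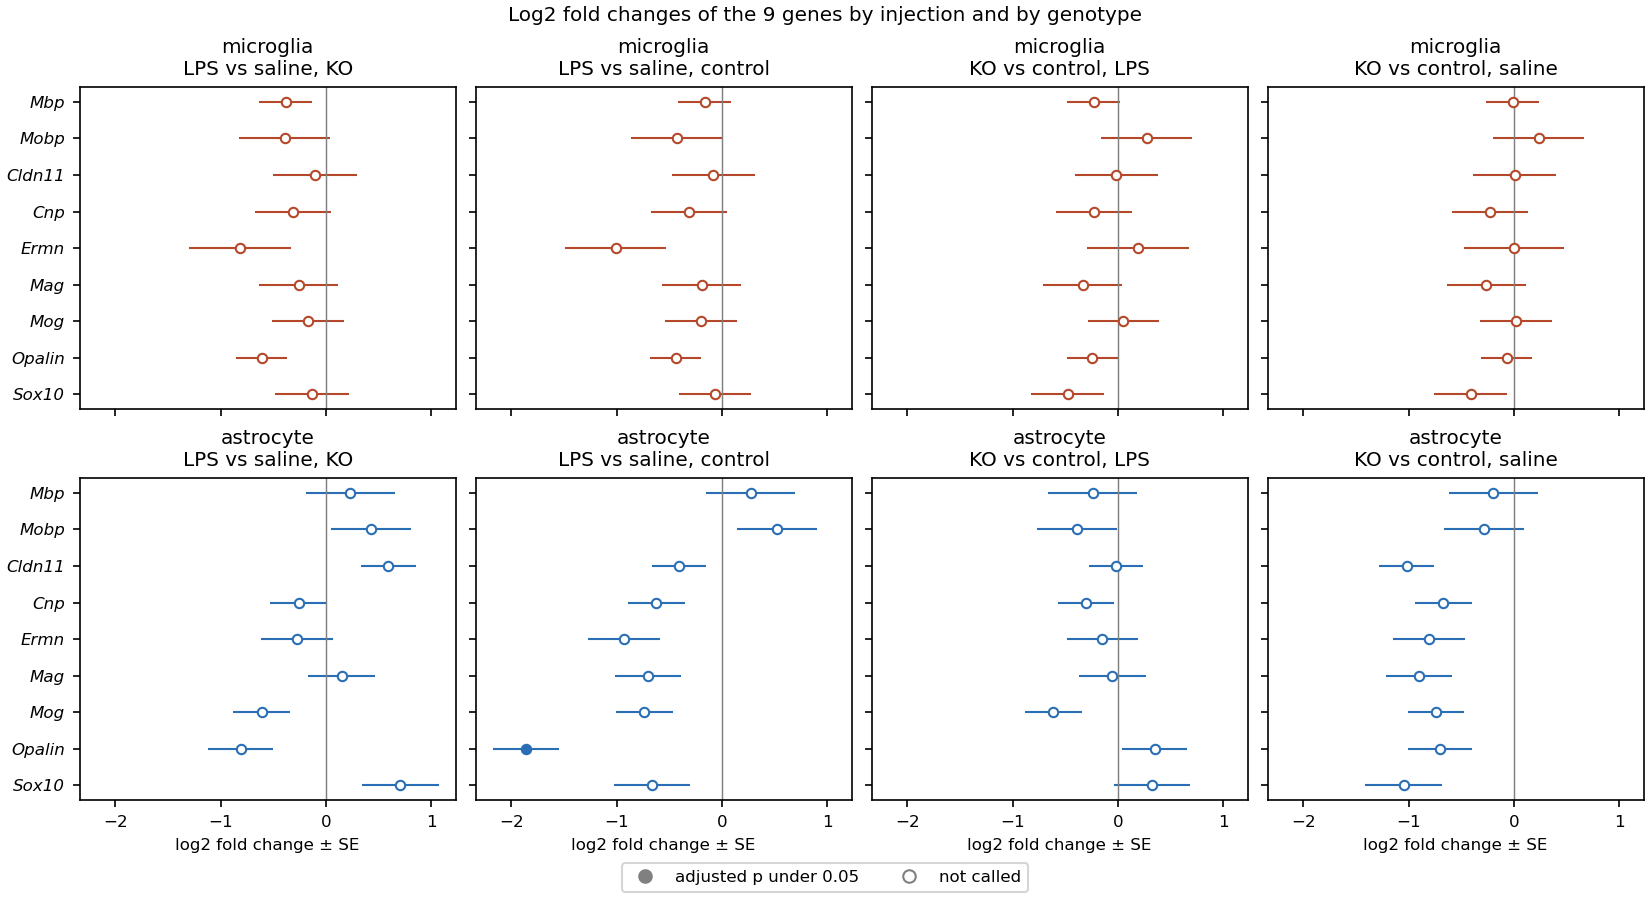
Log2 fold changes with SE of the 9 genes (rows) for LPS against saline and knockout (KO) against control, in microglia (upper row) and astrocyte libraries (lower row). Opalin in control astrocytes, at -1.86, is the only filled point, which marks an adjusted p under 0.05, and all 9 genes lie left of 0 for knockout against control in saline-injected astrocytes.

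In microglia preparations the 9 genes were tested in the same comparisons and none was called. The LPS groups held 2 females of 3 and the saline groups 1 of 3, so LPS and sex cannot be fully told apart there. With LPS in controls, 0.576% of all genes were called (128 genes) and 0 of 9 members, with 0 of 9 at an unadjusted p under 0.05, where 7.28% of all genes had one. DESeq2 called 0 of 9 as well. The 9 log2 fold changes ran from -1.01 for Ermn to -0.06 for Sox10, with a median of -0.20. Ermn was at 15, 12.5 and 7.73 CPM in LPS control libraries, against 29.7, 25.7 and 16.2 CPM in saline control libraries, and the groups did not overlap (SE 0.48, adjusted p = 0.69 by edgeR). It was 1 of 9 members with all LPS libraries below all saline libraries, where 7.25% of all genes had this. Opalin was at 51.7, 45.8 and 36.1 CPM in LPS controls, against 75.5, 43.1 and 62.4 CPM in saline controls, which overlapped (log2 fold change -0.44, SE 0.24). Mbp was at 536, 493 and 510 CPM in LPS controls, against 726, 343 and 654 CPM in saline controls (log2 fold change -0.16, SE 0.25).

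With LPS in knockout microglia, 1.14% of all genes were called (254 genes) and 0 of 9 members, while 1 of 9 had an unadjusted p under 0.05, where 7.61% of all genes did. That gene was Opalin, at 38.8, 39.7 and 34.6 CPM in LPS knockout libraries, against 75.3, 47.9 and 49.8 CPM in saline knockout libraries. The groups did not overlap (log2 fold change -0.61, SE 0.24, 95% interval -1.13 to -0.09, adjusted p = 0.474 by edgeR). Opalin was 1 of 9 members with all LPS libraries below all saline libraries, where 5.56% of all genes had this. All 9 log2 fold changes were negative in this comparison too, with a median of -0.32. Saline libraries ranged more widely than LPS libraries: the summed CPM of the 9 genes was 1119 to 1196 in LPS knockout, 1203 to 1363 in LPS control, 1019 to 2126 in saline knockout and 826 to 2017 in saline control libraries. Leaving out 1 library at a time moved the median in controls between -0.54 and 0.01 and that in knockouts between -0.51 and -0.02, so the sign of the first rests on single libraries. The summed microglia markers, which mark the intended cells, were at 1593 to 2997 CPM in LPS control and 2536 to 5114 CPM in saline control libraries, and at 1405 to 2463 CPM in LPS knockout and 2136 to 5101 CPM in saline knockout libraries. Of the 8 microglia markers, 2 were called lower with LPS in knockouts and 1 in controls, and the neutrophil markers averaged 647 CPM in LPS knockout and 1709 CPM in saline knockout libraries, and 692 CPM in LPS control and 699 CPM in saline control libraries. The erythrocyte markers summed to 30.1 to 35.1 CPM in LPS knockout and 64.0 to 156 CPM in saline knockout libraries, and to 34.2 to 41.4 CPM in LPS control and 44.9 to 149 CPM in saline control libraries, without overlap in either genotype. The part of these in the members' values was not tested.

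Genotype was not accompanied by a detected difference of the 9 genes in microglia. Among saline-injected mice and among LPS-injected mice 0 of 9 members were called, as was 0% of all genes, by edgeR, and DESeq2 called 0 of 9. The deleted gene Serpine2 was thus not called by edgeR either. It averaged 19.5 CPM in saline knockouts against 68.4 CPM in saline controls, and 18.3 against 68.5 CPM with LPS. The absence of calls therefore does not show that genotype made no difference. No member had an unadjusted p under 0.05 in saline, where 1.58% of all genes did, or in LPS, where 1.51% did, or for the LPS response of knockouts minus that of controls, where 1.13% did and 0 of 9 were called, with 0% of all genes called. The log2 fold changes of the 9 genes ran from -0.41 to 0.24 in saline and from -0.48 to 0.27 in LPS, with SE from 0.24 to 0.48. In LPS, 1 of 9 members, Mbp, had all knockout libraries below all control libraries, where 3.22% of all genes did. Mbp was at 424 to 449 CPM in LPS knockout and 493 to 536 CPM in LPS control microglia.

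Genes of the wider oligodendrocyte lineage were followed as lists. Of 43 other myelin and mature oligodendrocyte genes tested in astrocyte libraries, 1 was called with LPS in controls, where 0.929% of all genes were, 33 of 43 had negative log2 fold changes and the median was -0.68. The called gene was Gpr37, a receptor of oligodendrocytes, at 29.9 ± 6.10 CPM in LPS controls and 73.9 ± 8.91 CPM in saline controls (SD, n = 3 each), and it fell by 1.30 on the log2 scale (SE 0.26, adjusted p = 0.0211 by edgeR). Tubb4a, a tubulin of oligodendrocytes and neurons, was at -1.08 (SE 0.30) and Plekhb1 at -0.01 (SE 0.31). Apod, which codes for a lipid carrier that astrocytes also make, was at 2.45 (SE 0.69, adjusted p = 0.147 by edgeR). With LPS in knockouts the list had 0 called and a median of 0.03, and for knockout against control in saline 42 of 43 had negative log2 fold changes, with a median of -0.71 and 0 called. In microglia libraries 0 of 43 were called for LPS in either genotype, with medians of -0.20 in knockouts and -0.24 in controls.

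Lists for other stages of the lineage held few called genes. The precursor genes, 18 tested in astrocytes, had a median log2 fold change of 1.17 with LPS in knockouts and -0.03 with LPS in controls, and none was called. In knockout astrocytes 6 precursor markers summed to 29.9 to 222 CPM with LPS (102 ± 104 CPM, SD, n = 3) and 20.7 to 38.3 CPM with saline, which overlapped. Pdgfra among them was at 122.6 CPM in the second LPS knockout library and at 17.5 CPM in the lowest. How far the median of 1.17 rests on that second library was not tested. In knockout astrocytes the summed CPM of all 19 listed precursor genes was 1399 to 1989 with LPS and 1856 to 2215 with saline. Ptprz1, the precursor and astrocyte phosphatase that was highest in this list, was at -0.37 (SE 0.23) in knockouts and -0.64 (SE 0.23) in controls. The newly forming oligodendrocyte genes had 0 of 17 called in astrocytes, where 0.929% of all genes were, and 1 of 18 in microglia, where 0.576% were, with LPS in controls. That 1 was Arpc1b, an actin-branching subunit made by many cell types, at 78.8 ± 19.9 CPM in LPS control and 36.6 ± 8.85 CPM in saline control microglia (SD, n = 3 each; log2 fold change 1.10, SE 0.22, adjusted p = 0.0351 by edgeR). The transcription factor list had 0 of 19 called in astrocytes and 0 of 18 in microglia for LPS in either genotype, and the peripheral myelin list 0 of 7 and 0 of 8.

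A list of genes known to rise in oligodendrocytes in inflamed or diseased brain was followed for comparison, and most of these genes are also made by astrocytes, microglia and endothelium. In astrocyte libraries 12 of 25 were called higher with LPS in knockouts and 11 of 25 in controls, with median log2 fold changes of 2.59 and 2.22, against 1.56% and 0.929% of all genes called. Serpina3n, an acute-phase protease inhibitor, rose by 6.19 (SE 0.87) in knockouts and 6.45 (SE 0.88) in controls on the log2 scale, with the third LPS library lowest in each. C4b, a complement component, rose by 2.64 (SE 0.24) in knockouts and 2.71 (SE 0.24) in controls, and H2-D1, which presents antigen, by 5.03 (SE 0.52) and 4.06 (SE 0.49). In microglia libraries 7 of 26 were called higher with LPS in knockouts and 5 of 26 in controls, against 1.14% and 0.576% of all genes called. C4b was at 47.5 ± 4.31 CPM in LPS knockout and 8.70 ± 2.63 CPM in saline knockout microglia, and at 49.6 ± 13.3 CPM in LPS control and 9.47 ± 5.19 CPM in saline control microglia (SD, n = 3 each).

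**Figure D4:**
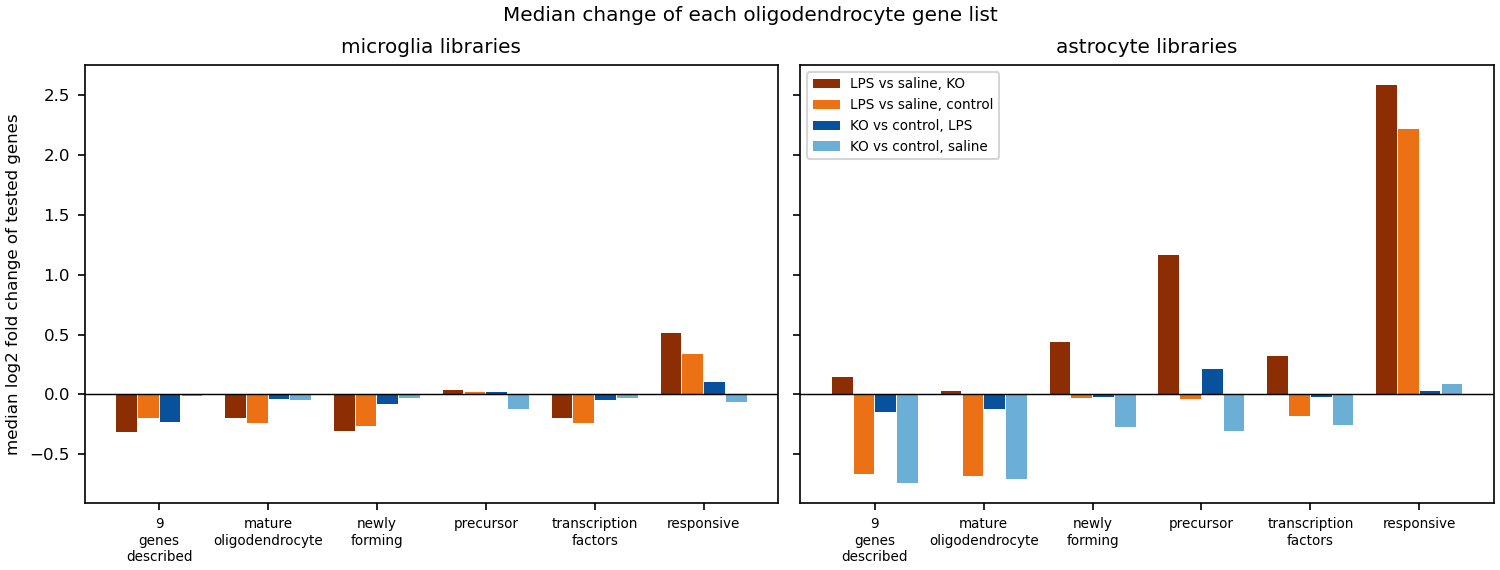
Median log2 fold change over the tested genes of each list, in microglia (left) and astrocyte libraries (right), for LPS against saline and knockout against control. In astrocytes the 9 genes and the 43 other mature genes have medians of -0.66 and -0.68 with LPS in controls and 0.15 and 0.03 with LPS in knockouts, while the responsive genes have 2.22 and 2.59.

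Within a cell type the 9 genes varied together only in part. Over the 36 pairs of members, Pearson's r of log2 CPM across 12 libraries had a median of 0.617 in microglia, from -0.169 to 0.979, and of 0.560 in astrocytes, from -0.321 to 0.938. The points share library, depth and group, so these are descriptions. In astrocytes Mobp and Mbp lay farthest from the mean of the 9, with r of 0.437 and 0.523, and Ermn closest with 0.900. In microglia Sox10 and Ermn lay farthest, with 0.520 and 0.546, and Mbp closest with 0.938. Each member is part of that mean, which raises its r, so these values are not comparable with those of outside genes. The genes outside the 9 whose log2 CPM followed that mean most closely in microglia, of 15043 with at least 5 CPM, were Mettl7a1 (r = 0.97), Chn2 (0.954), Daam2 (0.952) and Erbb3 (0.943), then Ifitm10, Olig2, Tmem178, Tspan15 and Mctp1. In astrocytes, of 9502, they were Tmeff2 (r = 0.949), Stmn4 (0.932), Tnfaip6 (0.926), Erbb3 (0.906) and Phldb1 (0.903), then Ppp1r16b, Tmem151a, Tmem88b, Tppp and Acsl1. Erbb3, a neuregulin receptor, was among the 10 nearest genes in both cell types.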

How the data were processed

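Values were whole-number counts of reads per Ensembl gene, as deposited, with no normalisation in the files. STAR 2.6.0c and HTSeq are the tools, and GRCm38 and GRCm39 the builds, that stand in the submitters' processing notes, without a role for either build. The strand setting, counting mode and annotation release are not given in the sources used here. Summary lines such as reads outside annotated genes were kept out of library sizes, and those reads were 64.6 to 77.0% of uniquely aligned reads in microglia and 20.5 to 26.9% in astrocytes. Identifiers were matched to symbols with GENCODE M21 on GRCm38.

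Counts were analysed with edgeR 4.0.16 under R 4.3.3, per cell type on 12 libraries with 1 mean per group. The filterByExpr function, set to 10 counts per library and 15 in all, kept 22230 microglia and 18188 astrocyte genes, among them all 9 members in both. TMM factors scaled the libraries, quasi-likelihood models were fitted with robust dispersions, and contrasts were tested two-sided. The call was an adjusted p (Benjamini-Hochberg) below 0.05, with every tested gene in the adjustment. The cell types were compared in 1 fit of 24 libraries over 52404 shared identifiers, of which 24607 passed. CPM used TMM-scaled library sizes, log2 CPM a prior count of 2. The fits were tested on simulated data. Alternatives were DESeq2 1.42.0, its size factors, other count filters, sex as a covariate, a replicate block, fits of the compared groups only and leaving out each library. Scaling by totals and leaving out the third LPS astrocyte libraries, whose Serpina3n was lowest of their groups, were added after seeing the data. Those libraries were also the only females of the LPS astrocyte groups. Reads carry no molecular identifiers, so counting error is a lower limit on the error.

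The members and gene lists were chosen with earlier results of these data known. Named genes are the 9 members, list genes that were called, up to 4 genes per list with the highest CPM, and the 10 genes nearest to the members' mean per cell type; some genes that this rule names are not reported here. Same-numbered knockout and control libraries deviated together in LPS astrocytes (r = 0.297, 0.157 and 0.354 over 18188 genes), so that a fit with the number as a block was read beside the main fit, which has none, and not throughout the other 3 sets, where r ran from -0.167 to 0.442. The labels speak of sibling pairs without saying that a number marks one. In LPS astrocytes the third library of each genotype was the only female of its group, so the number there also carries sex.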

Additional observations from a re-analysis of the deposited data

How the results depend on the processing

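Most member values kept their direction and side of the threshold, namely 1442 of 1512 values over all alternatives, while 60 turned direction, 8 lost a call and 2 gained one. Most of these values were not called in the main fit, and most alternatives left out 1 library. The share therefore says little about how firm the calls were. With LPS in control astrocytes, Opalin lost its call in 2 of 12 fits that left out 1 library. With LPS in control astrocytes, 2 members were called with no filter on low counts and in the fit of the compared groups only, Ermn joining Opalin, and leaving out 1 library gave 0 to 1 called members. All genes called there numbered 627 by DESeq2, 804 with no filter, 295 with sex as a covariate, 349 in the fit of the compared groups and 734 without the third LPS libraries, against 169. For LPS in knockout astrocytes, against 283, they numbered 826 by DESeq2, 1027 with no filter, 184 in the fit of the compared groups, 912 without the third LPS libraries and 38 to 561 without single libraries. For LPS in microglia they numbered 515 by DESeq2, 637 with no filter and 158 with sex in knockouts, against 254, and 281 by DESeq2 and 463 with no filter in controls, against 128. The genotype comparisons gave at most 2 genes by DESeq2 and 7 to 26 with no filter, and no member among them. With the replicate block no member's call changed, and genes called were 286 for LPS in controls and 423 for LPS in knockouts in astrocytes. The cell type comparison gave 5 called members with totals that left out mitochondrially encoded genes and 8 to 9 when 1 library was left out. Turned values there were Cldn11 0.65, Mag 0.85, Mog 1.13 and Opalin 0.69 with library totals, and Mog 0.26 without mitochondrially encoded genes, both scalings that move all genes nearly alike. Relative to the median of all genes the 9 were negative under each of these scalings. Summed CPM of the 9 genes on totals without mitochondrially encoded genes averaged 1248 in LPS knockout, 1323 in LPS control, 1522 in saline knockout and 1438 in saline control microglia, and 4350, 5525, 4149 and 5136 in the same groups of astrocytes.

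Turned values with sex as a covariate were Cldn11 0.0938, Mag 0.0240 and Sox10 0.0803 for LPS in control microglia, Cldn11 0.0473 and Mog 0.000225 for LPS in knockout microglia, Cldn11 0.00243 for genotype in LPS astrocytes and Mbp 0.0265 for the genotype difference in astrocytes. For LPS in control microglia, Cldn11 was 0.0537 with the replicate block and Sox10 0.00225 at a minimum count of 50, and Ermn was 0.11 for genotype in astrocytes without the third LPS libraries.

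Leaving out 1 library turned values as follows. For LPS in control microglia, Mbp ran from -0.39 to 0.11, Mobp from -0.70 to 0.28, Cldn11 from -0.40 to 0.42, Cnp from -0.65 to 0.0198, Mag from -0.54 to 0.19, Mog from -0.47 to 0.32 and Sox10 from -0.29 to 0.50. For LPS in knockout microglia, Mobp ran from -0.69 to 0.29, Cldn11 from -0.32 to 0.42 and Mog from -0.36 to 0.27. For LPS in control astrocytes, Mbp ran from -0.0772 to 0.55. For LPS in knockout astrocytes, Mbp ran from -0.52 to 0.55, Mobp from -0.29 to 0.75, Cnp from -0.51 to 0.0431, Ermn from -0.89 to 0.0348 and Mag from -0.18 to 0.56. For genotype in astrocytes, Mbp ran from -0.43 to 0.0877 in saline, and in LPS Mbp from -0.99 to 0.12, Cldn11 from -0.19 to 0.14, Ermn from -0.76 to 0.16, Mag from -0.22 to 0.0855 and Sox10 from -0.24 to 0.62. For the genotype difference in astrocytes, Mbp ran from -0.80 to 0.31, Mobp from -0.81 to 0.23 and Mog from -0.15 to 0.37. None of these turned values was called, and the cause was not tested.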
